A study of Oryctolagus cuniculus with 57 samples.

Results

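IFIT2, IFIT3, IFIT5, IFI44, IFI44L, IFI35, EPSTI1, XAF1, GBP1 and PARP9, 10 genes of the interferon response, were followed in the ileum of young rabbits on a custom microarray. They were taken by name, from the array's annotation and from the symbols the study gave its probes. They were read by 15 of the 42089 probes and make up 10 of the 7946 named genes that could be tested. Each array held the ileal RNA of 1 rabbit (called here by its label, such as lap94), a commercial hybrid (PS Hyplus 19 × PS Hyplus 39) taken at day 35 of age, when kits are weaned, or at day 49. The mother's faeces were cleared from the nest in all groups. NF kits (no access to feces) were given none in their place, FF kits were given foreign feces of unrelated does, and FFab kits were given foreign feces of unrelated does treated with tetracycline and tiamulin. The ages are those of the labels, where the methods once give a later day for the older kits. NF rabbit lap78 of day 35 was left out. The day 35 groups then held 10 rabbits (FF), 9 (NF) and 10 (FFab), and each day 49 group held 9. The labels give neither litter nor sex, so p-values measure the spread between these rabbits, some of which may be littermates.

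Interferons are signalling proteins that cells release on meeting viruses or other microbes. They bind receptors on neighbouring cells and switch on a large set of target genes, in the gut both in the epithelium and in immune cells. All 10 genes are known targets of this kind. IFIT2, IFIT3 and IFIT5 belong to a family of proteins that bind RNA and limit the translation of viral messages. IFI44, IFI44L, IFI35 and EPSTI1 are induced proteins with less defined roles. XAF1 counteracts the apoptosis inhibitor XIAP, GBP1 is a large GTPase that attacks the compartments of intracellular microbes, and PARP9 works with the ubiquitin ligase DTX3L.

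What each spot could detect is set by its probe of 60 bases. The sequences are shown because the names themselves come from the array's annotation and the study's symbols, not from the sequences. Positions are those printed in the array design, on oryCun2. Capitals mark the 53 bases that the overlapping XAF1 probes share.
IFIT2: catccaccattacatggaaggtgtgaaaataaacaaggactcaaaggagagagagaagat
IFIT3 (chr18:37245317-37245376, plus strand): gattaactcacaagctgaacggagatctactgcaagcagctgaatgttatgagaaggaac
IFIT5 (chr18:37301191-37301250, plus strand): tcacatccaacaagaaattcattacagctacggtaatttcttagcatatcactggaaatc
IFI44 (chr13:86734068-86734127, minus strand): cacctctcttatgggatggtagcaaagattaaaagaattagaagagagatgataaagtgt
IFI44L: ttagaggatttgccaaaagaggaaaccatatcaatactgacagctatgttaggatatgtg
IFI35 (chr19:43687848-43687907, plus strand): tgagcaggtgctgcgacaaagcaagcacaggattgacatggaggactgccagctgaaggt
EPSTI1 (chr8:52170410-52170469, plus strand): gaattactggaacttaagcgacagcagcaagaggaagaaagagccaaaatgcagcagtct
XAF1 (chr19:13930709-13930768, plus strand): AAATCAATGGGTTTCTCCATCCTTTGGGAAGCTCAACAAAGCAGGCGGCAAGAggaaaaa
XAF1, overlapping probe (chr19:13930702-13930761, plus strand): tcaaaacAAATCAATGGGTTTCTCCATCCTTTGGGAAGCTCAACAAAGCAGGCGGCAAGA
GBP1 (chr13:75648638-75648697, plus strand): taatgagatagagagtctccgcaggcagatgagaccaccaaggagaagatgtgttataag
GBP1, second probe (chr13:75647519-75648637, plus strand): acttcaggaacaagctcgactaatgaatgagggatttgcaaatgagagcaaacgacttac
PARP9 (chr14:96550715-96550774, plus strand): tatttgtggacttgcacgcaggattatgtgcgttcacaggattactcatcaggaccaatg

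The IFIT3 and IFIT5 probes lie 55.9 kb apart. The IFIT5 probe is annotated in the design as an IFIT1-like gene and took the name IFIT5 from the study, and the GBP1 probes are annotated as a GBP1-like gene, so each name stands for a rabbit relative of the human gene. No position was given for the IFIT2 and IFI44L probes, and whether a probe lies in coding or untranslated sequence was not analysed here. XAF1 and PARP9 had 3 probes each, of which a pair shares 1 sequence, and GBP1 had 2. The PARP9 probe of the other sequence (chr14:96550655-96550714) is not printed. Over the 56 arrays, probes of the same gene correlated at 0.990 to 0.999. The second GBP1 probe is listed over 1119 genomic bases.

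The arrays were first checked against markers of the ileum. FABP6, the ileal bile acid binding protein, and SLC10A2, the ileal bile acid transporter, were far lower in 7 of the 56 arrays, all labelled ileum. SLC10A2 read 2.04 to 5.69 in those 7 on the normalized log2 scale, against 11.13 to 14.09 in 48 others. FABP6 read 7.88 to 15.48 against 18.60 to 19.29. GATA4, a transcription factor of the small intestine above the ileum, read 7.92 to 8.62 against 4.09 to 7.37. The remaining array, NF rabbit lap113 of day 35, lay between, with SLC10A2 at 8.52. The 7 were 3 FFab and 1 NF of day 35 and 2 FFab and 1 NF of day 49, with 0 of FF, so the low arrays are not spread evenly over the treatments. Leaving them out, a choice made after seeing the data, changed no count of the 10 genes that passed the adjusted test in any of the 13 comparisons.

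**Figure D1:**
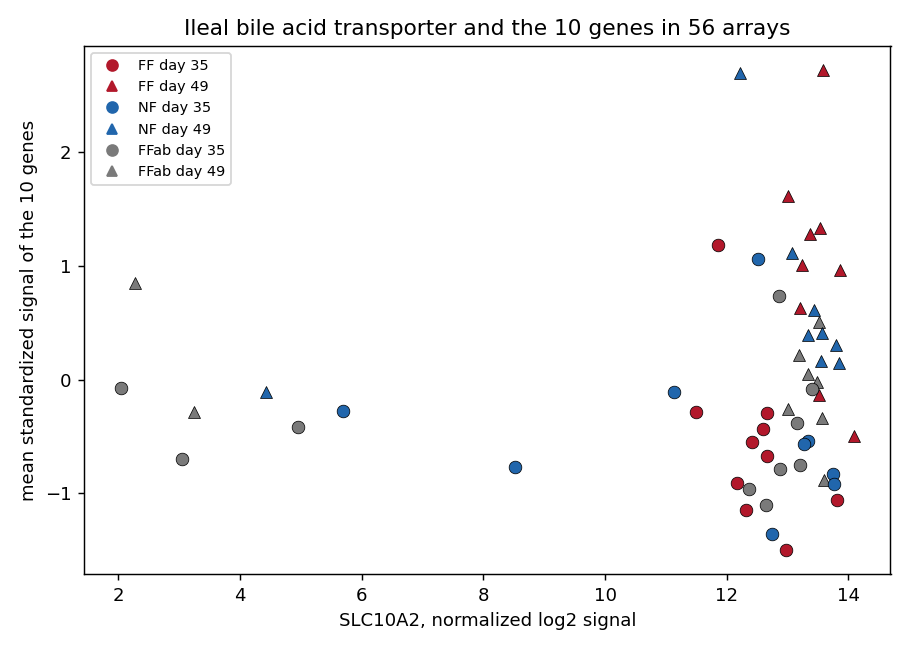
Each point is 1 of 56 arrays, with the normalized log2 signal of SLC10A2 on the horizontal axis and the mean standardized signal of the 10 genes (in SDs) on the vertical axis, circles for day 35, triangles for day 49, red FF, blue NF and grey FFab. The 7 arrays at 2.04 to 5.69 hold no FF rabbit and have mean signals from -0.696 to 0.852.

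In FF rabbits all 10 genes rose from day 35 to day 49, by 2.23-fold to 5.71-fold. All 10 passed the test (limma, adjusted p under 0.05 over the 7946 genes and a log2 change above 0.5), where 2.92% of all genes rose and 1.6% fell. IFIT2 is counted here and in the FF values below. The filter on dim probes kept its probe only through the FF arrays of day 49, so its call in FF is partly set in advance. The median log2 change was 1.99 for the 10 genes and -0.01 for all genes. In NF rabbits all 10 were higher at day 49, with a median of 1.46, but 0 of 10 passed, where 0.0252% of all genes did. At an unadjusted p under 0.05 there were 9 of 10 in NF, where 3.49% of all genes were higher, and 10 of 10 in FF, where 9.63% were. In FFab rabbits the median was 0.50 and 0 of 10 passed, where 0.0755% of all genes did, and 1 of 10 had an unadjusted p under 0.05, where 4.01% did. A log2 change above 0 was found for 47.5%, 48.8% and 49% of all genes in FF, NF and FFab. In whole tissue, more cells expressing a gene and more RNA per cell cannot be told apart.

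**Figure D2:**
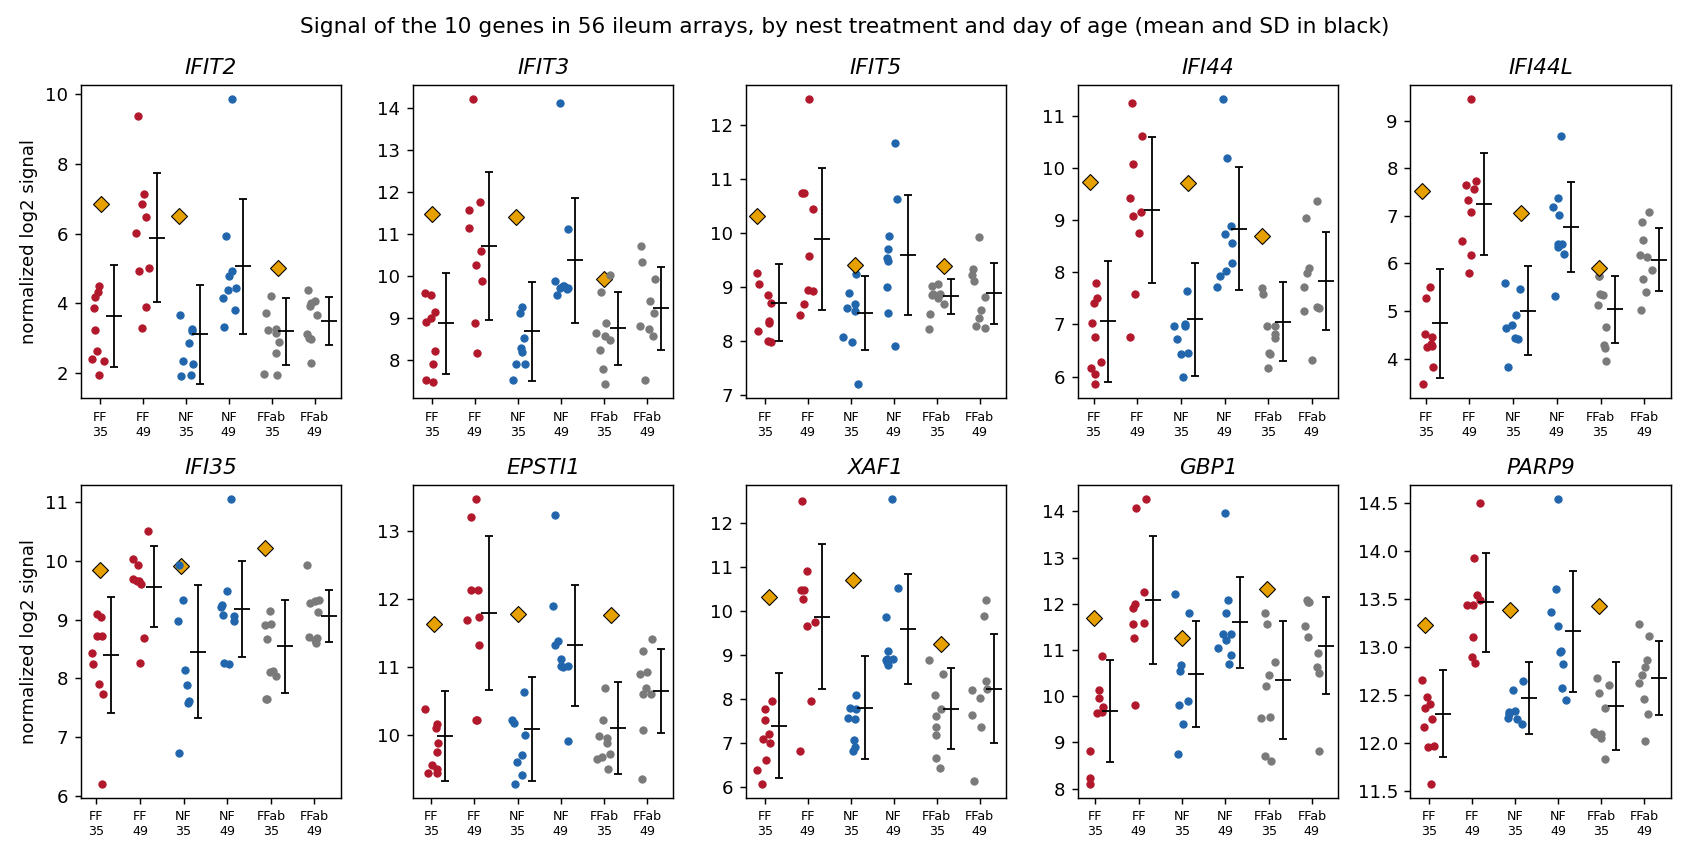
Normalized log2 signal of each gene (vertical axes) by nest treatment and day of age (horizontal axes), 1 point per rabbit, with the group mean and SD in black. The orange diamonds are FF rabbit lap102, NF rabbit lap94 and FFab rabbit lap108, the 3 rabbits of day 35 that stood at or above the median of day 49 in their mean over the 10 genes.

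Among the IFIT genes, IFIT3, a partner of IFIT2, ran from 7.48 to 11.48 (median 8.97) in FF at day 35 and from 8.17 to 14.22 (median 10.60) at day 49. The ages overlapped, with 7 of 10 younger rabbits above the lowest older one. The change was 1.84 ± 0.57 (SE, log2 scale; adjusted p = 0.0334). In NF the older rabbits ran from 9.56 to 14.12 with a median of 9.78, against 7.53 to 11.42 (median 8.30), so that most of the older rabbits lay close together, while lap170 stood far above them. The NF change was 1.69 ± 0.59 (adjusted p = 0.444) and the FFab change 0.48 ± 0.57 (adjusted p = 0.904).

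IFIT5 ran from 7.99 to 10.31 (median 8.55) in FF at day 35 and from 8.49 to 12.48 (median 9.57) at day 49. The groups overlapped, with 5 of 10 younger rabbits above the lowest older one. The FF change was 1.19 ± 0.38 (adjusted p = 0.0382), close to the 1.08 ± 0.39 of NF (adjusted p = 0.459). FFab showed the smallest change of all, 0.05 ± 0.38 with a 95% interval of -0.71 to 0.81, its medians being 8.86 and 8.82.

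IFIT2 was near background. At day 35 it cleared background in 1 array per treatment. At day 49 it did so in 7 FF, 6 NF and 3 FFab arrays out of 9 each. It could be tested only because of the FF arrays of day 49, so its call in FF is partly set by the filter on dim probes. In FF it ran from 1.94 to 6.84 (median 3.55) and then from 3.29 to 9.37 (median 6.01), a change of 2.25 ± 0.65 (adjusted p = 0.0204). The call depended on the background treatment, with a change of 0.87 after normexp correction (adjusted p = 0.0681) and 1.05 in the deposited values (adjusted p = 0.0519). The 8 genes other than IFIT2 and IFI44L were above background on all 56 arrays, and with the test limited to such probes, 8 of 8 passed in FF.

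IFI44L had the largest fitted change in FF with the processed signal, a rank that depended on how background was treated. It ran from 3.47 to 7.52 (median 4.38) at day 35 and from 5.79 to 9.45 (median 7.34) at day 49. Rabbit lap102 alone of the 10 younger rabbits reached the range of the older ones. The change was 2.51 ± 0.42, a 5.71-fold higher level (adjusted p = 8.2e-05). The NF values went from 3.83 to 7.06 (median 4.70) to 5.31 to 8.67 (median 6.40), and the FFab values from 3.94 to 5.91 (median 5.23) to 5.02 to 7.07 (median 6.13). NF changed by 1.76 ± 0.43 (adjusted p = 0.112). FFab changed by 1.04 ± 0.42 (p = 0.0159 unadjusted, adjusted p = 0.441). This was the gene of the 10 with an unadjusted p under 0.05 in FFab. The probe is dim, above background in 46 of 56 arrays and in 5 of the 10 younger FF arrays, so the fold rests on a dim baseline. Its FF change was 1.22 after normexp correction, 1.52 with the median signal and 1.42 in the deposited values, all past the threshold but below those of GBP1 (2.33, 2.37 and 2.37) and XAF1 (2.04, 2.17 and 2.18).

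IFI44, its relative, ran from 5.86 to 9.74 (median 6.89) in FF at day 35 and from 6.76 to 11.24 (median 9.16) at day 49. It overlapped more than IFI44L did, with 5 of 10 younger rabbits above the lowest older one. It changed by 2.13 ± 0.50 in FF (adjusted p = 0.00396), by 1.74 ± 0.51 in NF and by 0.77 ± 0.50 in FFab (adjusted p = 0.32 and 0.722).

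IFI35, which forms a complex with NMI, had the highest adjusted p of the 10 in FF. It ran from 6.21 to 9.85 (median 8.58) at day 35 and from 8.26 to 10.52 (median 9.66) at day 49, a change of 1.17 ± 0.38 (adjusted p = 0.0432). The ages overlapped, with 6 of 10 younger rabbits above the lowest older one. With no filter on dim probes the adjusted p was 0.053. The change was 0.73 ± 0.39 in NF and 0.52 ± 0.38 in FFab (adjusted p = 0.848 and 0.79).

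EPSTI1 ran from 9.44 to 11.63 (median 9.82) in FF at day 35 and from 10.22 to 13.47 (median 11.74) at day 49. Only 2 of 10 younger rabbits lay above the lowest older one. It changed by 1.80 ± 0.36 in FF (adjusted p = 0.000871), 1.23 ± 0.37 in NF and 0.54 ± 0.36 in FFab (adjusted p = 0.359 and 0.75).

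XAF1 ran from 6.07 to 10.31 (median 7.14) in FF at day 35 and from 6.82 to 12.50 (median 10.27) at day 49. It had a wide spread at day 49, and 7 of 10 younger rabbits lay above the lowest older one while 1 of 10 reached the older median. The NF medians were 7.57 and 8.90 and the FFab medians 7.69 and 8.20. The changes were 2.48 ± 0.56 in FF (adjusted p = 0.00324), 1.79 ± 0.58 in NF and 0.46 ± 0.56 in FFab (adjusted p = 0.407 and 0.911). The other XAF1 probes gave 2.38 ± 0.54 and 2.41 ± 0.55 in FF.

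GBP1 ran from 8.11 to 11.69 (median 9.71) in FF at day 35 and from 9.82 to 14.27 (median 11.90) at day 49, and 0 of 10 younger rabbits reached the older median. It changed by 2.40 ± 0.52 in FF (adjusted p = 0.00223), 1.12 ± 0.54 in NF and 0.74 ± 0.52 in FFab (adjusted p = 0.772 and 0.774), and its second probe gave 2.44 ± 0.52 in FF. The gene most like GBP1 over the 56 arrays was LOC100349005 (r = 0.960), whose probe at chr13:75543142-75543201 on the minus strand of oryCun2 lies 105.5 kb away. LOC100349257, annotated as guanylate-binding protein 5 and 46.3 kb away, correlated at 0.794. Their group means differed between the days by 1.72 and 1.19 in FF. The probes of these neighbours share runs of at most 5 bases with the GBP1 probe printed first.

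PARP9 had the smallest standard error. It ran from 11.58 to 13.23 (median 12.31) in FF at day 35 and from 12.83 to 14.50 (median 13.44) at day 49. Rabbit lap102 alone of the younger rabbits reached into the older range. The change was 1.16 ± 0.22 in FF (adjusted p = 0.000367), 0.69 ± 0.22 in NF and 0.30 ± 0.22 in FFab (adjusted p = 0.401 and 0.789). Its probes gave 1.13 to 1.16 in FF.

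Over the 3 treatments together all 10 genes rose, by 0.71 for PARP9 to 1.77 for IFI44L, with adjusted p-values from 1.09e-06 to 0.0117, where 2.43% of all genes rose (11.8% at an unadjusted p under 0.05). IFIT2 is among the 10. Its probe was kept only through the FF arrays of day 49, so its call here too is partly set in advance. The count of 10 in FF alone was less firm. It was 6 when only the FF arrays were fitted, and 6 without FF rabbit lap159 of day 49, which held the highest value of its group in 8 of the 10 genes. Leaving out each array in turn changed the count in 14 of 56 fits, with the call of IFI35 lost in 12, of IFIT5 in 10, of IFIT3 in 8 and of IFIT2 in 1. IFIT2, IFIT3, IFIT5 and IFI35 lost their calls in both of the fits with 6, with adjusted p-values of 0.0562, 0.0869, 0.117 and 0.0584 in the first and 0.0718, 0.115, 0.14 and 0.0794 in the second. On the 9 slides, where each could be set against a younger FF rabbit of the same slide, the older FF rabbit was higher on 9 slides for IFIT5, IFI44L, EPSTI1 and PARP9, on 8 for IFIT2, IFIT3, IFI44, XAF1 and GBP1, and on 7 for IFI35. In NF the older rabbit was higher on 8 of 8 slides for IFIT2, IFIT3, IFI44, IFI44L, EPSTI1, XAF1 and PARP9, on 7 for IFIT5 and GBP1, and on 5 for IFI35. In FFab it was higher on 4 to 8 of 9.

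**Figure D3:**
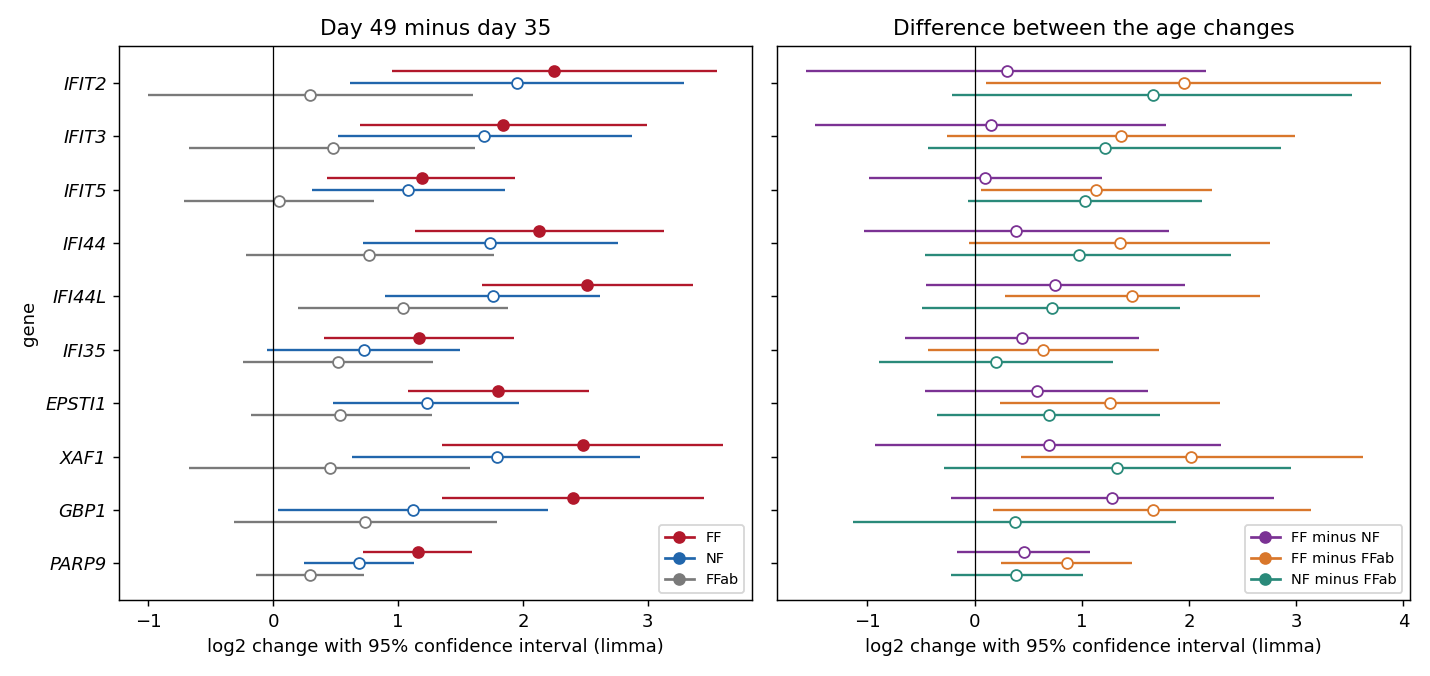
Log2 change from day 35 to day 49 in each treatment (left) and the difference between the changes of a pair of treatments (right), per gene, with 95% confidence intervals from limma; filled points passed the test after adjustment. All 10 FF points on the left are filled and 0 of the points on the right.

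In all 10 genes the change was largest in FF, smaller in NF and smallest in FFab, and the group means at day 49 stood in the same order. For IFIT2 this order is partly set by the filter, which kept its probe only through the FF arrays of day 49. The genes vary together, so their orders are not independent. The differences between treatments did not pass the adjusted test. For FF minus FFab, 0 of 10 passed (0% of all genes), and 7 of 10 had an unadjusted p under 0.05, where 1.46% of all genes did and 47.7% had a difference above 0. IFIT2 is among the 7, but its dim probe was kept by the filter only through the FF arrays of day 49, so its difference is not read here. XAF1 differed most, by 2.02 ± 0.79 (95% interval 0.43 to 3.62; p = 0.014, adjusted p = 1). PARP9 had the lowest p, with a difference of 0.86 ± 0.30 (0.25 to 1.47; p = 0.00678, adjusted p = 1). FF minus NF ran from 0.10 for IFIT5 to 1.28 for GBP1 (interval -0.22 to 2.79), with 0 of 10 passing and 0 of 10 at an unadjusted p under 0.05, where 0% and 1.88% of all genes did and 47.4% were above 0. NF minus FFab ran from 0.20 for IFI35 to 1.33 for XAF1 (interval -0.28 to 2.95) in the 9 genes other than IFIT2, whose probe was near background in both treatments, also with 0 of 10 and 0 of 10, where 0% and 0.415% did and 51.4% were above 0. The intervals are wide, and a p that misses the threshold does not show that the treatments act alike. These comparisons share groups, so their results are not independent. Without the 7 arrays low in ileal markers, the median difference over the 10 genes was 1.48 in place of 1.36 for FF minus FFab, 0.33 in place of 0.45 for FF minus NF, and 1.15 in place of 0.84 for NF minus FFab.

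At day 35 the treatments lay close together. The 3 group means spanned 0.05 for IFI44 and at most 0.80, for GBP1, whose means were 9.68 ± 1.11 in FF (SD, n = 10), 10.48 ± 1.14 in NF (n = 9) and 10.35 ± 1.28 in FFab (n = 10). In each of the 3 pairs 0 of 10 genes passed and 0 of 10 had an unadjusted p under 0.05 (limma). Of all genes, 0%, 0.0126% and 0% were called higher in FF than NF, FF than FFab and NF than FFab, and 3 genes were called lower in FF than NF. At an unadjusted p under 0.05, 4.08%, 3.15% and 0.768% were higher. The median FF minus NF difference was small, -0.08 for the 10 genes and 0.003 for all genes.

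At day 49 FF stood above FFab in all 10 genes, with a median log2 difference of 1.16, where 47.5% of all genes had a difference above 0. After adjustment 0 of 10 passed (0% of all genes), and 8 of 10, all but IFI35 and GBP1, had an unadjusted p under 0.05, where 1.13% of all genes did. IFIT2 is among the 8, but it was kept by the filter through the FF arrays of day 49 and cleared background in 3 of 9 FFab arrays, so its size and rank are not read here. Its means were 5.88 ± 1.85 in FF and 3.50 ± 0.68 in FFab (SD over the rabbits). PARP9 had the lowest p of the other 9, with a difference of 0.78 ± 0.22 (p = 0.000821, adjusted p = 1), with means of 13.46 ± 0.52 and 12.68 ± 0.39. NF stood above FFab with an unadjusted p under 0.05 in 3 of 10, IFIT2, XAF1 and PARP9, where 1.06% of all genes did, and FF above NF in 0 of 10, where 0.516% did. After adjustment 0 of 10 passed in either, as did 0% of all genes.

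The 10 genes varied together from rabbit to rabbit. Over the 45 pairs of genes, the correlation across the 56 arrays ran from 0.592 to 0.965 (median 0.817), and from 0.486 to 0.951 (median 0.756) once group means were removed. Genes of 1 array share its labelling and hybridization, so this is a description. The mean of the 10 standardized signals, used here as a score, had medians of -0.609 in FF, -0.570 in NF and -0.557 in FFab at day 35, and of 1.004, 0.393 and -0.022 at day 49. Older rabbits differed widely. FF rabbit lap159 and NF rabbit lap170 had the highest scores, 2.721 and 2.692, whereas FF rabbit lap212 stood at -0.499. The scores of the ages overlapped in each treatment. In FF they ran from -1.499 to 1.181 at day 35 and from -0.499 to 2.721 at day 49. The ranges were -1.354 to 1.064 and -0.11 to 2.692 in NF, and -1.1 to 0.735 and -0.88 to 0.852 in FFab. NF rabbit lap170 was the highest of its group in all 10 genes. FFab rabbit lap185, an array low in ileal markers, was the highest of FFab at day 49 in 8 of 10.

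**Figure D4:**
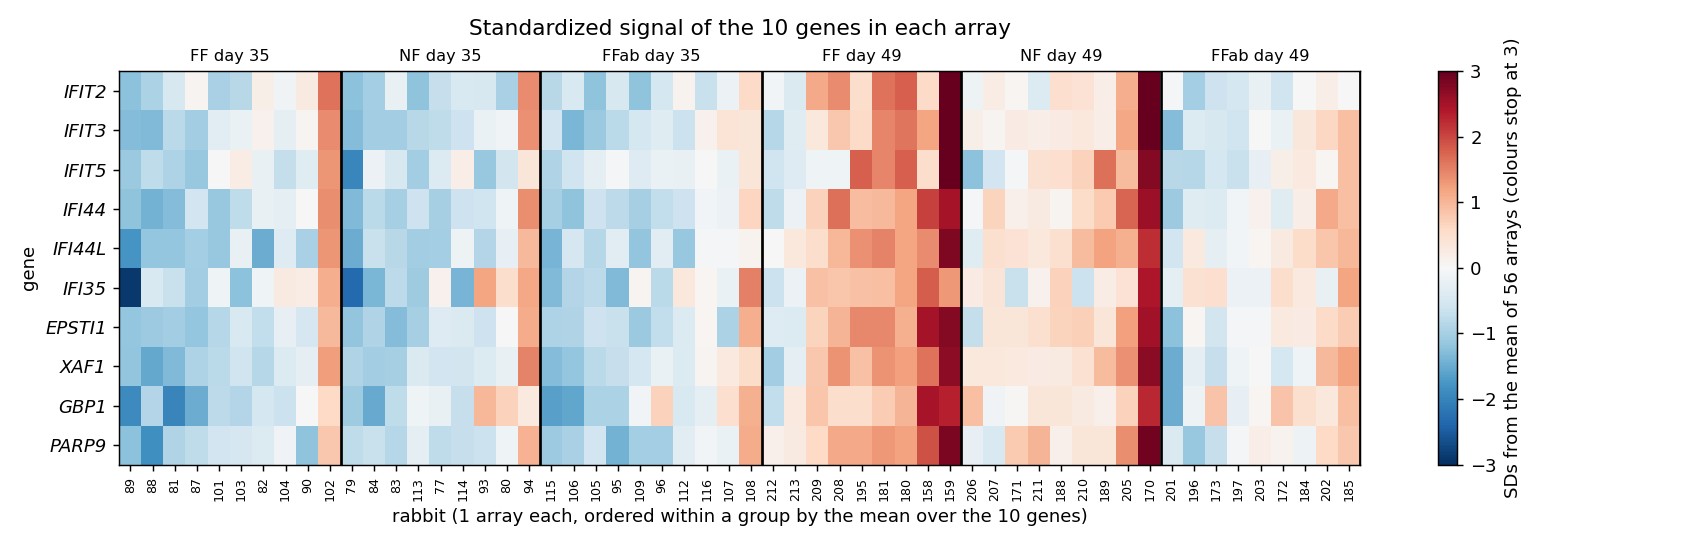
Signal of each gene (rows) in each array (columns, by rabbit number and ordered by the mean over the 10 genes within a group), in SDs from the gene's mean over 56 arrays, blue below and red above. At day 35 the last column of each group, FF rabbit lap102, NF rabbit lap94 or FFab rabbit lap108, is redder than the columns before it in most rows, and at day 49 FF rabbit lap159 and NF rabbit lap170 are the darkest.

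At day 35, 3 of 29 rabbits already stood at or above the median score of day 49, 0.393. There was 1 in each treatment, FF rabbit lap102 with 1.181, NF rabbit lap94 with 1.064 and FFab rabbit lap108 with 0.735. The next scores in their groups were -0.281, -0.111 and -0.071, leaving a gap below each. The count was 3 as well with the lower quartile of day 49 as threshold, with the median of the 10 genes as score, and in the deposited values. That lower quartile lay between the day 49 scores of -0.11 and -0.022. FFab rabbits lap107 (-0.071) and lap116 (-0.079) missed it narrowly, and NF rabbit lap80 (-0.111) lay close by. The count at that threshold thus rests on small differences. FF rabbit lap102 was the highest younger FF rabbit in 10 of 10 genes, and above the FF median of day 49 in 7 of 10. It stood above the median of the others by 0.98 for PARP9 to 3.22 for XAF1, and by 3.61 for IFIT2, which was near background at this age. NF rabbit lap94 was the highest in 8 of 10, with XAF1 at 10.69 against 8.08 for the next rabbit, and above the NF median of day 49 in 8 of 10. FFab rabbit lap108 was the highest in 9 of 10, with EPSTI1 at 11.76 against 10.69, and above the FFab median of day 49 in 9 of 10. The 3 arrays lay on different slides, had 70.3% to 79.3% of spots well above background (66% to 83.7% over all arrays) and were not among the 7 low in ileal markers. Even so, FF rabbit lap102 had the lowest mean level of 5 ileal markers in its group, -0.03 against a median of 1.09 in the others. NF rabbit lap94 ranked 4 of 9 and FFab rabbit lap108 5 of 10. The 3 rabbits were picked by their signal, so these values are a description.

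The other genes of the pathway were read from lists of genes. Of 6 interferons and receptors measured, 1 rose in FF, interferon gamma (IFNG), by 1.49 ± 0.46 (adjusted p = 0.0335), with a median of 0.14 over the list. Its change was 0.97 ± 0.48 in NF and 0.40 ± 0.46 in FFab (adjusted p = 0.792 and 0.9). The type I and type III interferons on the list could not be tested. Of 10 signalling genes 5 rose and 0 fell in FF, among them the transcription factors IRF9 by 0.82 ± 0.17 and IRF7 by 1.90 ± 0.51, and USP18, which removes ISG15 from proteins, by 2.62 ± 0.68. The medians of this list were 0.65 in FF, 0.27 in NF and 0.18 in FFab. Of 6 sensors of viral nucleic acid 5 rose, among them the helicases DDX60 by 3.73 ± 0.68 and RIGI by 1.77 ± 0.40 and the receptor TLR3 by 0.88 ± 0.19, with list medians of 1.03, 0.71 and 0.38. Sensors thus moved in the same direction as the 10 genes in FF.

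Of 22 further interferon-stimulated genes 12 rose in FF, among them HERC5, a ligase of ISG15, by 2.48 ± 0.50, ZNFX1 by 0.93 ± 0.23 and NUB1 by 0.61 ± 0.15. Of 13 genes of the interferon gamma response and of MHC class I presentation 10 rose, among them PSMB8, a subunit of the immunoproteasome, by 1.35 ± 0.29, the peptidase ERAP1 by 0.95 ± 0.20 and the proteasome activator PSME2 by 0.63 ± 0.14. Of 8 relatives and partners of the 10 genes 5 rose, including DTX3L, the partner of PARP9, by 0.89 ± 0.18, PARP14 by 1.33 ± 0.28 and PARP12 by 0.60 ± 0.15. Over these 6 lists 38 of 65 genes rose in FF and 0 fell, where 2.92% of all genes rose. By limma 0 of 65 passed in either of the other treatments. With p under 0.05 before adjustment, 28 of 65 were higher in NF and 4 of 65 in FFab, where 3.49% and 4.01% of all genes were, so that the FFab count is near the share over all genes. The list medians in NF and FFab were 0.64 and 0.30 for the further interferon-stimulated genes and 0.55 and 0.33 for the gamma and MHC list.

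**Figure D5:**
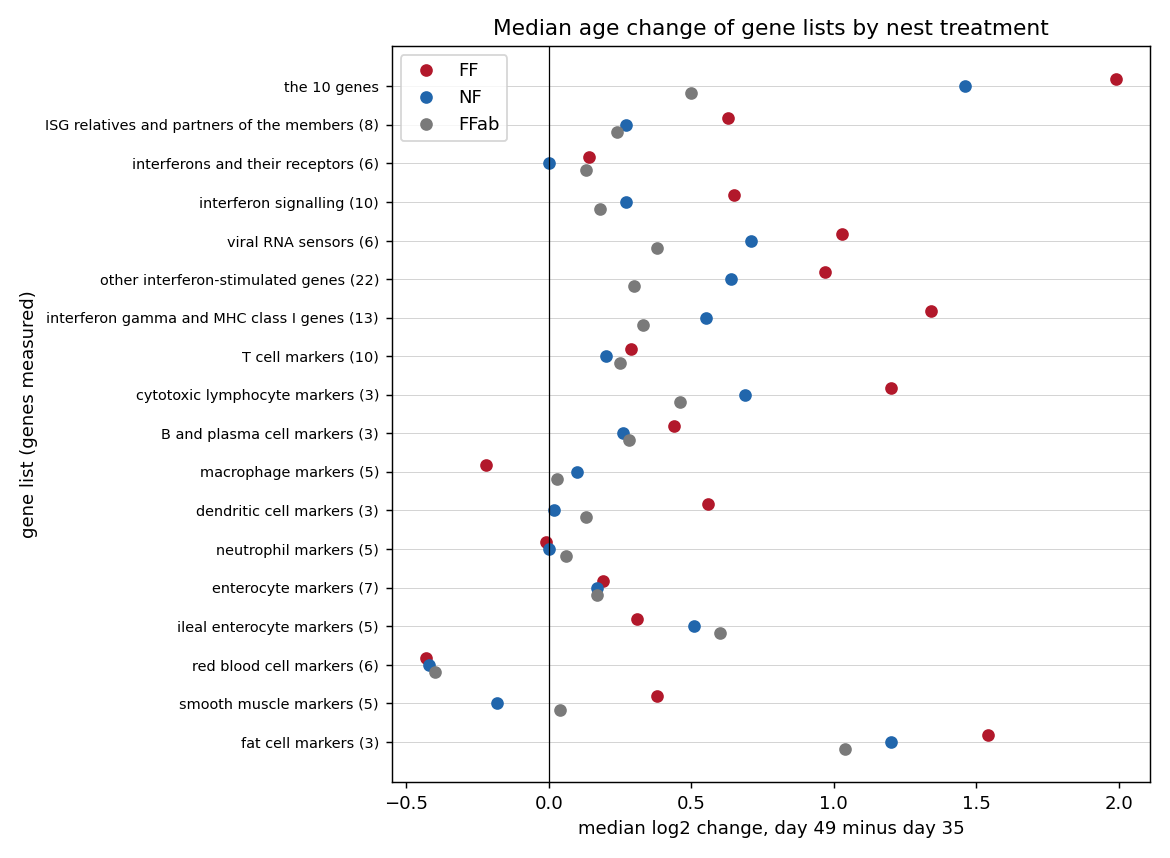
Median log2 change from day 35 to day 49 (horizontal axis) over the measured genes of each list (vertical axis, number of genes in brackets) by treatment. The 10 genes lie at 1.99, 1.46 and 0.50, and the lists of signalling genes, sensors, further interferon-stimulated genes and gamma or MHC genes show the same order of treatments.

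Outside the set, the genes whose signal was most like the score over the 56 arrays were RIGI (r = 0.966), DHX58 (0.964), UBA7 (0.962), IRF7 (0.954), SP100 (0.948) and ISG15 (0.946), and 0.935 to 0.946 with group means removed. RIGI and DHX58 are RNA helicases of 1 family, UBA7 activates the ubiquitin-like ISG15, and SP100 is a nuclear body protein. By single gene, IFIT2 was most like IFIT3 (0.879), IFIT3 most like ISG15 (0.971), IFIT5 most like IRF7 (0.845), IFI44 and XAF1 most like each other (0.965), IFI44L most like EPSTI1 (0.915), IFI35 most like UBE2L6 (0.851), EPSTI1 most like RIGI (0.944) and PARP9 most like DHX58 (0.926).

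Markers of other cells moved with the score in part. The 3 cytotoxic lymphocyte markers measured all rose in FF, GZMH by 2.77 ± 0.63, CD96 by 1.20 ± 0.26 and PRF1 by 1.03 ± 0.32, and their mean level correlated with the score at 0.7. Of 10 T cell markers 0 passed in FF by limma and 2 were higher at an unadjusted p under 0.05, where 2.92% and 9.63% of all genes were, with a median of 0.29 and a correlation of 0.506. Macrophage markers had a median of -0.22 over 5 genes and neutrophil markers of -0.01 over 5, with correlations of 0.332 and 0.024. The correlation was 0.465 for 3 fat cell markers, 0.393 for 3 dendritic, 0.274 for 3 B and plasma cell and 0.221 for 7 enterocyte markers. By limma, 2, 3 and 2 of the 3 fat cell markers were higher in FF, NF and FFab at an unadjusted p under 0.05. Of all genes, 9.63%, 3.49% and 4.01% were. Red blood cell markers went the other way, at -0.504 with the score and a median of -0.43 over 6 genes, of which CA1 fell by 2.49. At an unadjusted p under 0.05 (limma), 3 of these 6 were lower in FF and 0 higher, where 1690 of the 7946 genes moved either way. In the rabbits already high at day 35, FF lap102, NF lap94 and FFab lap108, the cytotoxic level was the highest of the group, at 0.83, 1.65 and 1.41 against medians of -1.19, -0.41 and -0.41 in the others. Their red blood cell level was the lowest of the group, at -0.20, -1.04 and -0.67 against 0.85, 0.22 and 0.28. The cytotoxic list was not alone. FFab lap108 was also the highest of its group in T cell (0.51), B and plasma cell (1.09), macrophage (0.20) and dendritic cell markers (0.32). NF lap94 was the highest in macrophage markers (0.52) and ranked 2 of 9 in T cell (0.42) and B and plasma cell markers (1.34). FF lap102 ranked 5 to 7 of 10 in these lists. The part of these cells in the levels of the 10 genes was not tested.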

How the data were processed

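Total RNA of 57 ileum samples was labelled with Cy3 and hybridized 1 to an array, on 9 slides of 6 or 7 arrays. The authors deposited Agilent Feature Extraction scanner files with spot intensity values (processed, mean, median and background signal), made with version 10.7.3.1 per the labels and 10.10.1.1 per the file headers. They also deposited a log2 table of 33284 probes, which correlated at 0.998 with log2 median signal and was used as an alternative. The processed intensity was averaged over the spots of a probe, put on the log2 scale and quantile-normalized here. The filter kept the 31722 probes well above background in 75% of arrays in at least 1 group, and so 7946 named genes, each read by its probe of median level. NF rabbit lap78 of day 35 was left out, as the study did. One mean per group was fitted to 56 arrays (limma 3.58.1, R 4.3.3, 50 residual degrees of freedom), with Benjamini-Hochberg adjustment over all genes and a threshold of 0.05 and a log2 change of 0.5. Precision is limited by the number of arrays. The fit was tested on simulated data. The text names all 10 genes, up to 3 called genes of smallest adjusted p per list, and the genes of highest correlation. The 10 genes and the lists were chosen with earlier results of these data known. Promoters and proteins were not analysed here.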

Additional observations from a re-analysis of the deposited data

Results flagged for a closer look

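In 21 of 66 sets of values (each gene, and the mean standardized signal or score of the 10 genes, in each group) 1 rabbit lay far from the others of its group by Dixon's test, which chance alone flags in about 1 in 20 sets. The genes vary together, so these are not independent cases. IFIT2 was near background at day 35, so its distances there are partly distances from background. Rabbits lap102, lap94 and lap108 were singled out in the report by these same values, so their distance is a description. Among FF rabbits of day 35, rabbit lap102 stood apart for IFIT2 (6.84, next 4.51), IFIT3 (11.48, next 9.60), IFI44 (9.74, next 7.79), IFI44L (7.52, next 5.50), EPSTI1 (11.63, next 10.39), XAF1 (10.31, next 7.95) and the score (1.18, next -0.28). Among NF rabbits of day 35, rabbit lap94 stood apart for IFIT2 (6.50, next 3.67), IFIT3 (11.42, next 9.26), IFI44 (9.72, next 7.64), XAF1 (10.69, next 8.08) and PARP9 (13.38, next 12.65). Among FFab rabbits of day 35, rabbit lap108 stood apart for EPSTI1 (11.76, next 10.69) and PARP9 (13.43, next 12.68). Among NF rabbits of day 49, rabbit lap170 stood apart for IFIT2 (9.85, next 5.94), IFIT3 (14.12, next 11.13), IFI35 (11.06, next 9.49), XAF1 (12.54, next 10.51), GBP1 (13.96, next 12.09) and the score (2.69, next 1.12). In FFab at day 49, rabbit lap201 was far below the others for GBP1 (8.81, next 10.51).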

How the results depend on the processing

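Of the counts of the 10 genes that passed, 878 stayed within 1.5 times the main count and 5 did not. They cover 13 comparisons and all settings except those that left out arrays by their ileal markers. The main count was 0 in all comparisons but the age change in FF and over the treatments. Most of the 878 thus set 0 against 0 and say little about stability. In FF, 9 in place of 10 is within 1.5 times, and leaving out each array in turn changed the count in 14 of 56 fits. Fitting only the FF arrays gave 6 in FF in place of 10, and array weights gave 1 in NF in place of 0, IFI44L (1.65, adjusted p = 0.0427). Leaving out each array in turn gave 6 to 10 in FF, with 6 without FF rabbit lap159 of day 49, and 0 to 1 in NF, with 1, IFI44L, without NF rabbit lap206 of day 49, an array low in ileal markers (adjusted p = 0.0232) or NF rabbit lap94 of day 35 (adjusted p = 0.0241). The other 11 counts were the same in each of these 56 fits. The cause of these changes in the counts was not tested. In FF, 9 passed with normexp, median signal or the deposited values (without IFIT2) and 9 with no filter on dim probes (without IFI35). Slide as a block, 75th percentile centring and all 57 arrays left 10. Over all genes, array weights raised the count of genes called in NF from 2 to 19 and in FFab from 7 to 34, and leaving out the 7 arrays low in ileal markers, chosen after seeing the data, gave 15 in NF. No paired analysis was possible because rabbit numbers are unique to a rabbit and the groups share none. Slides were used as a block instead.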

Other observations

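NF rabbit lap78 of day 35, which the study left out, was normalized with the other 56 arrays and compared with the 9 other NF rabbits of its age. It had the lowest EPSTI1 signal of all 57 arrays, 8.21, where the others of its group ran from 9.28 to 11.78, and a PARP9 signal of 11.73, where they ran from 12.20 to 13.38. The other 8 genes lay within the range of its group, for example IFI44 at 6.82 (5.98 to 9.72) and XAF1 at 6.94 (6.80 to 10.69).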
